A study of Mus musculus with 10 samples.

Results

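The 9 genes described here encode the proteins of primary (azurophil) granules and a few molecules that mark the early myeloid progenitors in which those granules form. They are Mpo, Elane, Prtn3, Ctsg, Ms4a3, Cebpe, Gfi1, Cd34 and Kit. They were chosen by name, as entries whose gene symbol equals one of these in all 10 libraries, and make up 9 of 24421 symbols. RNA was sequenced from Ly6Chigh monocytes of the spleen of male mice, 8 to 10 weeks old, on day 5 after surgery. The 3 sham libraries (replicates 1, 2 and 3) came from WT C57BL/6 mice whose chest was opened without tying the artery, the 3 WT MI libraries (replicates 2, 3 and 4) from C57BL/6 mice with a lasting ligature on the left anterior descending artery of the heart (myocardial infarction, MI), and the 4 Foxp3DTR MI libraries (replicates 1 to 4) from mice with the same ligation. In Foxp3DTR mice the Foxp3 promoter drives a human receptor for diphtheria toxin, and the toxin thereby depletes Foxp3+ regulatory T-cells (Tregs). All operated mice received buprenorphine. The protocol for Treg ablation gives 500 ng toxin on days 2 and 1 before surgery and 250 ng on day 2 after it. The study describes WT mice that were compared with Foxp3DTR mice as toxin-treated, but the labels name no toxin for single samples, sham samples included. All Foxp3DTR libraries belong to the same group, so genotype and Treg loss cannot be told apart in any comparison. Wherever the toxin was not matched, its effect cannot be told apart from them either. Depletion with this protocol was partial in the study.

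Neutrophils and monocytes descend from shared granulocyte-monocyte progenitors. Genes of the primary granule are transcribed early, in promyelocytes and their precursors, and are shut off as the cells mature, when genes of the secondary granule take over in the neutrophil line. After MI the spleen is a site of such extramedullary myelopoiesis. The sort took CD11b+ Ly6G− F4/80+ Ly6Chigh CD115+ cells after removal of T- and B-cells, a gate that does not name the progenitor markers Cd34 and Kit. In bulk libraries such as these, fewer cells of a type and less RNA per cell cannot be told apart.

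The 5 genes of the granule program for which a promoter window carried the same 6 letters are shown first, because they are also the 5 genes with the highest levels of the 9. The windows are the 250 bases before the RefSeq gene start on GRCm38.p6 (mm10), read 5′ to 3′ on the strand of the gene. Mpo lies on the plus strand of chromosome 11 (window chr11:87793534-87793783). Elane (chr10:79886062-79886311) and Prtn3 (chr10:79879417-79879666) lie side by side on the plus strand of chromosome 10, with 3139 bases between the end of Prtn3 and the start of Elane. Ctsg (chr14:56102575-56102824) and Ms4a3 (chr19:11640852-11641101) lie on the minus strand. Capitals mark GGAAGT, the letters bound by PU.1 and other ETS factors, and AACGG, letters bound by MYB, on either strand. The other MYB letters that were searched, AACTG, are in capitals too, likewise on either strand.
Mpo: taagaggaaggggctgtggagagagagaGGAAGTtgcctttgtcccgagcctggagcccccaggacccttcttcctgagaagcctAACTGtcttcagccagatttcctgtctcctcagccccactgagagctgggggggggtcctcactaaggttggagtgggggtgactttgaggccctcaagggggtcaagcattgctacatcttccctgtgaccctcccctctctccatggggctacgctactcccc
Elane: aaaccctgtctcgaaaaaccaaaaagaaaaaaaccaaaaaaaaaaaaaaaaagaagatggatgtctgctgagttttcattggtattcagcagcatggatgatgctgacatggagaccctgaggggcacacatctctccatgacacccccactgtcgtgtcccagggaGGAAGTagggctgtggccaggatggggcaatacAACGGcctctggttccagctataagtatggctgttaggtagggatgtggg
Prtn3: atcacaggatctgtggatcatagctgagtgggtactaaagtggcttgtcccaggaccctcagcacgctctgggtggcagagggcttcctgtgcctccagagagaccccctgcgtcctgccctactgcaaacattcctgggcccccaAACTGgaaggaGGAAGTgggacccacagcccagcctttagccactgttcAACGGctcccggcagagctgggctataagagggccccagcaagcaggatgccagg
Ctsg: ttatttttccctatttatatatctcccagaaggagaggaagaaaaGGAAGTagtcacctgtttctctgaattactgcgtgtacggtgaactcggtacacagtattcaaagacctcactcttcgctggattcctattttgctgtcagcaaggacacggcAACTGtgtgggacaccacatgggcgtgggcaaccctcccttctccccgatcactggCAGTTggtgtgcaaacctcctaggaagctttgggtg
Ms4a3: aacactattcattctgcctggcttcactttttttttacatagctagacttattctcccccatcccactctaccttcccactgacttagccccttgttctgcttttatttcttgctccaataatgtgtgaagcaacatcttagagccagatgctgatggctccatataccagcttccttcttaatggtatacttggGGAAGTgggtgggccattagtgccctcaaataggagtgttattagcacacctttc

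GGAAGT began 222 bases before the start of Mpo, 83 before Elane, 93 before Prtn3, 205 before Ctsg and 55 before Ms4a3, each time on the strand of the gene. RefSeq windows were at hand for 8 of the 9 genes, not for Cebpe. Thus 5 of 8 windows held GGAAGT on either strand, against 5401 of 27025 windows of the same length in all (20%), and the windows of Gfi1, Cd34 and Kit held none. The MYB letters stood in 5 of 8 windows, those of Mpo, Elane, Prtn3, Ctsg and Gfi1, against 48.8% of all windows. Letters for C/EBP factors (TTNNGNAA) stood in 2 of 8, Ms4a3 and Gfi1, against 36.9%. Letters for RUNX factors (TGTGGT) stood in 1 of 8, Ctsg, against 14.2%. In the Ms4a3 window the C/EBP match overlaps GGAAGT in the letters GGAA, and in that of Gfi1 it overlaps a MYB match in the letters AA. These letters were chosen with the windows in view, and a match is a description of the sequence, not a bound site.

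Levels are given as deposited TPM, a share of all transcripts that is corrected for length and can be compared between genes. The depth inferred from the ratio of coverage to FPKM was, in units of 1000000 reads, 3.13 to 8.04 in the sham libraries, 5.24 to 8.395 in the WT MI libraries and 6.61 to 7.55 in the Foxp3DTR libraries, with sham replicate 2 the shallowest. Input was 20 to 50 pg of RNA. Sham replicate 3 stood apart from the other sham libraries in markers of other cells, with summed levels of 137 TPM for T-cell markers against 10.8 and 24.0, 201 TPM for erythroid markers against 7.42 and 54.6, and 27.9 TPM for basophil and mast cell markers against 8.27 and 7.47. The monocyte sort markers Ly6c2, Ccr2, Csf1r, Itgam and Adgre1 summed to 3543 to 5515 TPM after sham surgery. The sums were 4442 to 4796 TPM in WT MI and 6321 to 7288 TPM in Foxp3DTR MI. Ly6c2 was the largest part, with means of 2082, 2258 and 4157 TPM in the same order. The log2 fold changes in Foxp3DTR MI against WT MI were 0.64 for Ly6c2, 0.20 for Itgam and 0.05 for Ccr2. Those of Adgre1 and Csf1r were -0.12 and -0.49. None of the 5 passed the test in any comparison. The sums are of TPM before the scaling between libraries that the tests used, so the gap between WT MI and Foxp3DTR MI need not hold after it. No gene of the 9 was listed at 0 in more than 1 library.

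The primary granule holds a peroxidase and serine proteases. Mpo encodes myeloperoxidase, which makes hypochlorous acid, and Elane, Prtn3 and Ctsg encode the proteases neutrophil elastase, proteinase 3 and cathepsin G. Mpo stood at 22.9, 6.59 and 24.5 TPM in sham replicates 1, 2 and 3, at 32.0, 10.7 and 18.0 TPM in WT MI replicates 2, 3 and 4, and at 30.4, 45.8, 24.5 and 58.9 TPM in Foxp3DTR MI replicates 1 to 4. Sham replicate 3 and WT MI replicate 2 lay within the Foxp3DTR range, and the other WT libraries below it. Group means were 18.0 ± 9.94 TPM (SD, n = 3) for sham, 20.2 ± 10.8 TPM (SD, n = 3) for WT MI and 39.9 ± 15.5 TPM (SD, n = 4) for Foxp3DTR MI.

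Elane stood at 24.3, 4.39 and 27.2 TPM after sham surgery, at 51.4, 15.7 and 14.7 TPM in WT MI and at 48.9, 72.1, 35.0 and 77.1 TPM in Foxp3DTR MI. All 4 Foxp3DTR libraries were above all 3 sham libraries, and WT MI replicate 2 lay within the Foxp3DTR range. Prtn3, the most abundant of the 9 genes, stood at 38.0, 10.2 and 67.5 TPM after sham surgery, at 79.6, 32.4 and 66.0 TPM in WT MI and at 118, 114, 62.1 and 128 TPM in Foxp3DTR MI. Foxp3DTR replicate 3 was the exception, below sham replicate 3 and below WT MI replicates 2 and 4, while the other 3 Foxp3DTR libraries exceeded every WT library. Ctsg stood at 8.84, 3.99 and 18.7 TPM after sham surgery, at 37.0, 6.82 and 11.03 TPM in WT MI and at 40.3, 32.8, 11.97 and 39.0 TPM in Foxp3DTR MI. Again WT MI replicate 2 was among the high libraries and Foxp3DTR replicate 3 among the low ones.

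**Figure D1:**
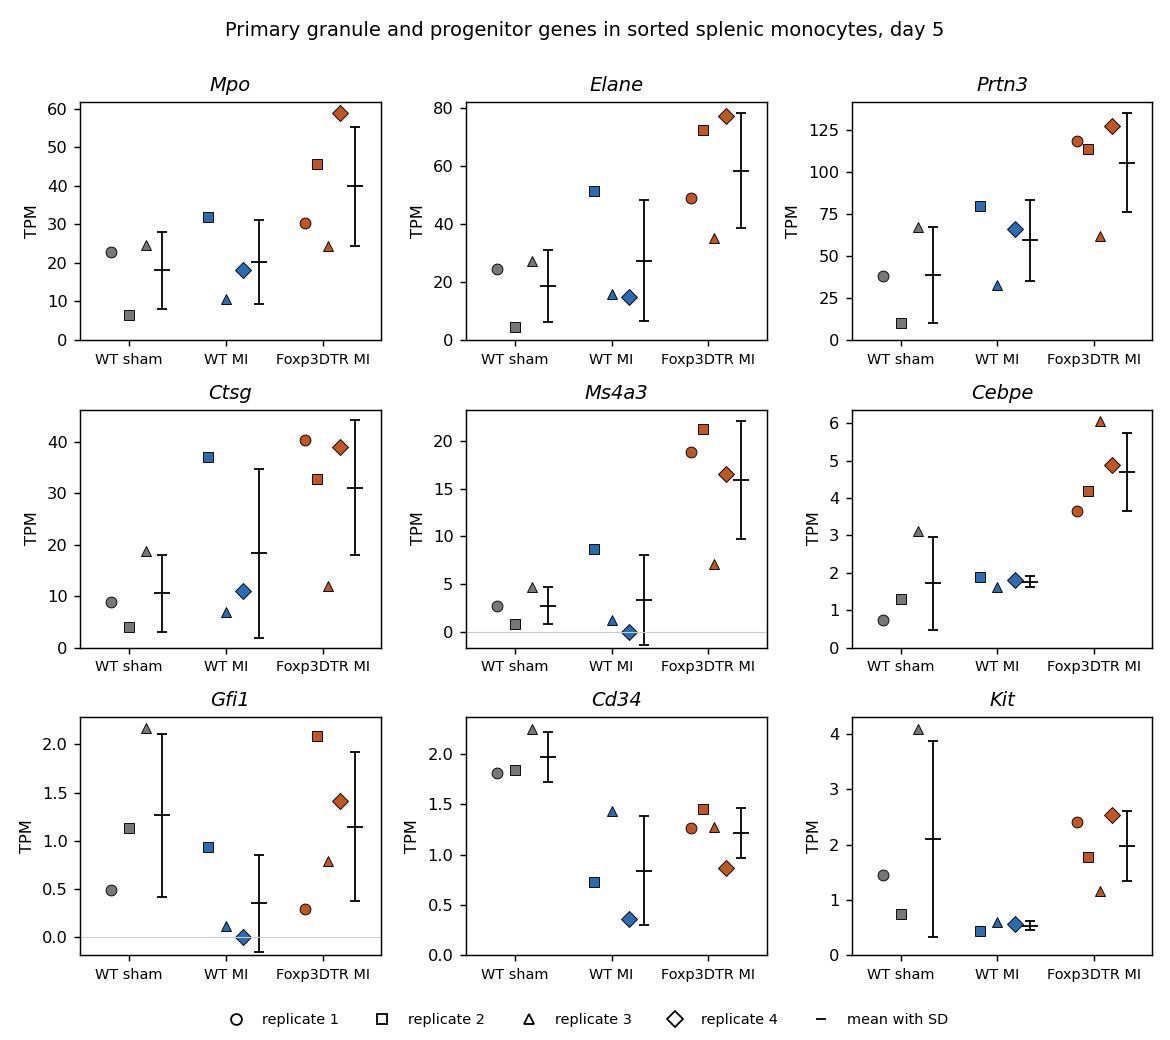
TPM of each of the 9 genes (y axes, starting at or below 0) by group (x axes), with 1 point per library shaped by replicate number and the group mean with its SD beside it. For Mpo, Elane, Prtn3 and Ctsg the lowest point of all is sham replicate 2, and for Cebpe and Kit the 4 Foxp3DTR libraries lie above all 3 WT MI libraries.

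Sham replicate 2 had the lowest level of all 10 libraries for Mpo, Elane, Prtn3 and Ctsg alike. These low values rest on few reads. Taking coverage, the annotated transcript length and reads of 50 bases, about 20.1 reads stand behind its Mpo value, 4.79 behind Elane, 11.6 behind Prtn3 and 4.44 behind Ctsg. In the other 9 libraries the lowest such figures were 84.4 for Mpo, 26.8 for Elane, 76.6 for Prtn3 and 17.4 for Ctsg.

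Across libraries the 4 genes kept their proportions more closely than their levels. From the lowest to the highest library, Mpo spanned 8.94-fold, Elane 17.6-fold, Prtn3 12.5-fold and Ctsg 10.1-fold. The ratio to Prtn3 within a library spanned 2.5-fold for Mpo (0.257 to 0.643), 2.90-fold for Elane (0.223 to 0.645) and 2.78-fold for Ctsg (0.167 to 0.465). The groups overlapped in each of these 3 ratios. The ratio of Elane to Mpo ran from 0.667 to 1.11 in the sham libraries, from 0.815 to 1.60 in WT MI and from 1.31 to 1.61 in Foxp3DTR MI, so that it did not overlap between sham and Foxp3DTR MI. That ratio was singled out after its values were seen. The genes share library, depth and input, and no test was made of these ratios.

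Ms4a3 encodes a membrane protein found on granulocyte-monocyte progenitors and their early progeny. It stood at 2.65, 0.804 and 4.66 TPM after sham surgery, at 8.72 and 1.25 TPM in WT MI replicates 2 and 3, and was listed at 0 in WT MI replicate 4. In Foxp3DTR MI it stood at 18.8, 21.3, 7.07 and 16.5 TPM. All 4 Foxp3DTR libraries lay above all sham libraries, and 3 of 4 above all WT MI libraries, the exception being replicate 3, below WT MI replicate 2. Relative to Prtn3 in the same library, Ms4a3 stood at 0.0690 to 0.0785 after sham surgery, 0 to 0.110 in WT MI and 0.114 to 0.187 in Foxp3DTR MI, so that this ratio was highest in the 4 Foxp3DTR libraries. About 0 to 20.4 reads stood behind the WT values of Ms4a3 and 17.0 to 50.3 behind the Foxp3DTR values.

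Cebpe and Gfi1 encode transcription factors of granulocyte differentiation, C/EBP epsilon, which drives the step from primary to secondary granule genes, and the repressor GFI1, which restrains monocyte fate. Cebpe stood at 0.740, 1.31 and 3.12 TPM after sham surgery, at 1.88, 1.61 and 1.81 TPM in WT MI and at 3.66, 4.18, 6.07 and 4.89 TPM in Foxp3DTR MI. Every Foxp3DTR library was above every WT library, and unlike the granule genes Cebpe had its highest value in Foxp3DTR replicate 3. Gfi1 stood at 0.480, 1.13 and 2.17 TPM after sham surgery, at 0.930, 0.109 and 0 TPM in WT MI and at 0.290, 2.09, 0.792 and 1.41 TPM in Foxp3DTR MI. Its groups overlapped throughout, and at about 0 to 15.6 reads per library Gfi1 is the least supported of the 9 genes.

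Cd34 encodes a sialomucin of stem and progenitor cells, and Kit the receptor for stem cell factor, which mast cells also carry. Cd34 stood at 1.81, 1.84 and 2.26 TPM after sham surgery, at 0.732, 1.43 and 0.362 TPM in WT MI and at 1.26, 1.46, 1.27 and 0.871 TPM in Foxp3DTR MI. The 3 sham libraries were above all 7 libraries after MI. Kit stood at 1.46, 0.745 and 4.10 TPM after sham surgery, at 0.442, 0.594 and 0.562 TPM in WT MI and at 2.42, 1.77, 1.16 and 2.54 TPM in Foxp3DTR MI. The 3 WT MI libraries were below all others, and sham and Foxp3DTR MI overlapped. Sham replicate 3, the library with the most T-cell and erythroid RNA, had the highest level of Gfi1, Cd34 and Kit, and the part of those cells in these values was not tested. About 1.65 to 15.1 reads stood behind Cd34 and 4.31 to 58.3 behind Kit.

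The first comparison set Foxp3DTR MI against WT MI, groups that differ in genotype as well as in Treg depletion. All 9 genes had a higher mean in Foxp3DTR MI than in WT MI, but none passed at an adjusted p under 0.05 (limma on log2(TPM + 1) after scaling, two-sided, Benjamini-Hochberg over 12938 genes), where 145 genes or 1.12% of all tested did. Log2 fold changes lay above 0 for 9 of 9 genes against 50.1% of all genes. Their median was 0.76, while the scaling holds the median of all genes at 0.00. The 9 genes are not independent of each other.

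Ms4a3 had the largest difference of the 9, at 2.35 on the log2 scale (SE 0.70, adjusted p = 0.126). Of the granule genes, Elane was at 1.01 (SE 0.59, adjusted p = 0.405), Mpo at 0.76 (SE 0.49, adjusted p = 0.448), Ctsg at 0.70 (SE 0.61, adjusted p = 0.584) and Prtn3 at 0.62 (SE 0.54, adjusted p = 0.580). The differences of these 4 granule genes lie within 2 SE of 0, and each overlapped between the groups. In deposited TPM, 2 of 4 Foxp3DTR libraries lay above all WT MI libraries for Mpo, Elane and Ctsg and 3 of 4 for Prtn3. These counts were made before scaling and can change with it. Cebpe differed by 0.85 (SE 0.30, adjusted p = 0.183), Kit by 0.82 (SE 0.36, adjusted p = 0.266), Gfi1 by 0.60 (SE 0.40, adjusted p = 0.471) and Cd34 by 0.19 (SE 0.25, adjusted p = 0.743). Before adjustment Ms4a3, Cebpe and Kit were under 0.05 and higher, 3 of 9 genes against 9.31% of all genes. Cebpe and Kit were the 2 genes of 9 whose groups did not overlap, against 9.97% of all genes that were higher without overlap.

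Single WT MI libraries set much of these sizes. Without WT MI replicate 2 the log2 fold change of Ctsg was 1.35 and that of Elane 1.56, and without any one library Ctsg ranged from 0.19 to 1.35, Prtn3 from 0.21 to 0.87, Mpo from 0.36 to 1.13 and Elane from 0.72 to 1.56. Ms4a3 ranged from 1.59 to 3.29. Cd34 was -0.01 without WT MI replicate 4. No removal brought one of the 9 genes past the threshold in this comparison, while the number of all genes that passed ranged from 0 (without WT MI replicate 2) to 431 (without sham replicate 2).

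**Figure D2:**
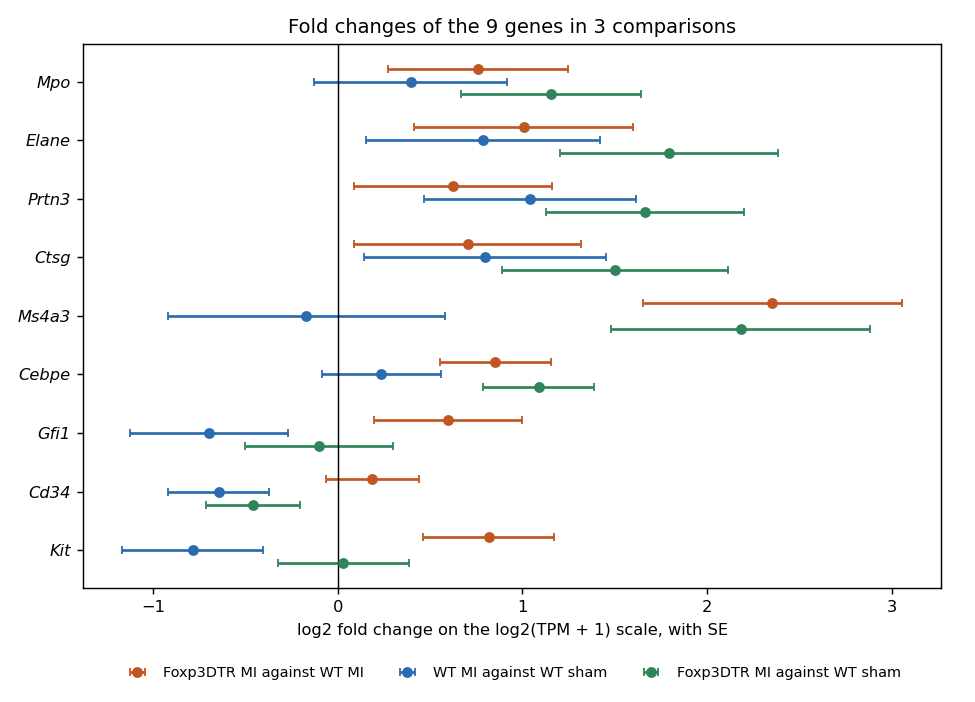
Log2 fold changes (x axis, log2(TPM + 1) scale after scaling) of the 9 genes (y axis) in the 3 comparisons, as points with their SE. All 9 points lie right of 0 for Foxp3DTR MI against WT MI, with Ms4a3 farthest at 2.35, while Ms4a3, Gfi1, Cd34 and Kit lie left of 0 for WT MI against WT sham.

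The second comparison asked what MI changed in WT mice. None of the 9 genes passed, nor did any of all 12938 (0%, limma), of which 600 or 4.64% had an unadjusted p under 0.05. The granule genes had means somewhat higher after MI, at log2 fold changes of 0.40 for Mpo (SE 0.52), 0.79 for Elane (SE 0.63), 1.04 for Prtn3 (SE 0.57) and 0.80 for Ctsg (SE 0.66), each with an adjusted p of 0.960 or above. These values lean on the low sham replicate 2, without which Mpo was at -0.14, Elane at 0.04, Ctsg at 0.33 and Prtn3 at 0.34, and on the high WT MI replicate 2, without which Mpo was at 0.02, Elane at 0.23, Ctsg at 0.15 and Prtn3 at 0.80. Ms4a3 was at -0.17 (SE 0.75) and Cebpe at 0.24 (SE 0.32). Cd34, Kit and Gfi1 had lower means after MI. They were at -0.65 for Cd34 (SE 0.27, adjusted p = 0.960), -0.79 for Kit (SE 0.38, adjusted p = 0.960) and -0.70 for Gfi1 (SE 0.43, adjusted p = 0.960). With 1 library left out Cd34 ranged from -0.87 to -0.46, Kit from -1.11 (without sham replicate 2) to -0.37 (without sham replicate 3) and Gfi1 from -1.01 (without WT MI replicate 2) to -0.44 (without sham replicate 3). Before adjustment Cd34 was under 0.05, and Cd34 and Kit were the 2 genes of 9 with all WT MI libraries below all sham libraries, against 3.73% of all genes. The direction was positive in 5 of 9 genes against 49.6% of all genes.

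The comparison of Foxp3DTR MI with WT sham mixes genotype, toxin and surgery, and its libraries are those of the other comparisons. None of the 9 genes passed, against 70 genes or 0.541% of all tested. Before adjustment 6 of 9 were under 0.05 and higher, against 10.2% of all genes, namely Cebpe (log2 fold change 1.09, SE 0.30, adjusted p = 0.118), Ms4a3 (2.18, SE 0.70, adjusted p = 0.150), Prtn3 (1.66, SE 0.54, adjusted p = 0.151), Elane (1.79, SE 0.59, adjusted p = 0.158), Ctsg (1.5, SE 0.61, adjusted p = 0.229) and Mpo (1.16, SE 0.49, adjusted p = 0.241). In linear terms the Foxp3DTR mean was 5.89 times the sham mean for Ms4a3, 3.13 times for Elane, 2.95 times for Ctsg, 2.73 times for Prtn3 and Cebpe and 2.21 times for Mpo. Elane, Ms4a3 and Cebpe did not overlap between the groups, against 9.8% of all genes that were higher without overlap. Cd34 was lower without overlap (-0.46, SE 0.25, adjusted p = 0.362), against 8.44% of all genes. Gfi1 (-0.10, SE 0.40) and Kit (0.03, SE 0.36) were near 0. The direction was positive in 7 of 9 genes against 49% of all genes.

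Leaving out single sham libraries changed this comparison. Without sham replicate 3, the library with the most T-cell and erythroid RNA, Cebpe rose by 1.41 on the log2 scale (limma adjusted p = 0.0249) and Prtn3 by 2.21 (adjusted p = 0.0427), so that 2 of 9 genes passed, and the number of all genes that passed went from 70 to 636. Without sham replicate 2, in turn, Elane was at 1.05, Prtn3 at 0.96 and Mpo at 0.62. The number of all genes that passed was 3 without sham replicate 1 and 5 without sham replicate 2, and none of the 9 genes passed in either case. Each library was taken as 1 animal, and p-values measure the spread between these libraries.

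Genes that process and store the granule proteins were read beside them. Ctsc encodes the dipeptidyl peptidase that removes the propeptide of the serine proteases, and Calr a chaperone of myeloperoxidase folding. In Foxp3DTR MI against WT MI, none of 11 tested genes of granule protease processing, cargo and inhibitors passed in either direction, 7 were positive and the median log2 fold change was 0.37. Ctsc was at 0.80 (SE 0.17, adjusted p = 0.0516) and Calr at 0.80 (SE 0.17, adjusted p = 0.0516), both just outside the threshold and without overlap between the groups. Of the 11 genes 6 were higher and 3 lower without overlap, where 9.97% of all genes were higher without it. Cd63, a membrane protein of primary granules, was at 0.92 and Lyz1, a lysozyme gene, at -1.06, both with an adjusted p of 0.169. The similar lysozyme gene Lyz2 was at -0.95 (limma adjusted p = 0.418), and reads may be shared between them. In WT MI against sham none of the 11 passed (median 0.06), nor in Foxp3DTR MI against sham (median 0.26). Ctsc was at 682, 664 and 625 TPM in WT MI and at 1357, 1620, 1371 and 1120 TPM in Foxp3DTR MI.

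Transcription factors of the myeloid line stayed outside the threshold as well. Of 14 tested, 0 passed in each of the 3 comparisons, with medians of 0.02, -0.02 and -0.10. The 4 of lowest p in Foxp3DTR MI against WT MI were Myb (1.25, adjusted p = 0.168) and Myc (0.88, adjusted p = 0.183), factors of proliferating progenitors, and Cebpb (-1.27, adjusted p = 0.168) and Cebpd (-0.56, adjusted p = 0.181), factors of maturing myeloid cells. Myb stood at 7.52, 1.91 and 2.18 TPM in WT MI and at 11.7, 13.1, 7.54 and 11.1 TPM in Foxp3DTR MI, with WT MI replicate 2 again the highest of its group and Foxp3DTR replicate 3 the lowest.

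Among 11 tested stem and progenitor genes, Ly6a, which encodes the stem cell antigen Sca-1 and is also induced by interferon, was the only one that passed. It rose by 1.84 on the log2 scale in Foxp3DTR MI against WT MI (SE 0.34, adjusted p = 0.0413) and by 1.90 against sham (SE 0.34, adjusted p = 0.0494), while WT MI and sham differed by 0.06 (SE 0.37, adjusted p = 0.997). Ly6a stood at 33.2, 42.8 and 48.5 TPM in WT MI and at 151, 175, 207 and 177 TPM in Foxp3DTR MI. It is one of a family of similar Ly6 genes, between which reads may be shared. Flt3, the receptor for FLT3 ligand on early progenitors and dendritic cells, was at -1.86 (SE 0.45, adjusted p = 0.0722). Cdk6 (0.50), Lmo2 (-0.26) and Csf2rb (0.22) had adjusted p of 0.249, 0.257 and 0.263. The medians of this list were 0.22, -0.12 and -0.17 in the 3 comparisons. Genes of the list that were too low to be tested are not described.

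Secondary granule genes are the next wave of the neutrophil program. Of 14 tested secondary granule and calprotectin genes 3 rose in Foxp3DTR MI against WT MI, 12 were positive and 2 negative. The 2 were Cd177 at -0.83 (limma adjusted p = 0.227) and Hp at -0.25 (adjusted p = 0.591). The median log2 fold change was 1.24 against 0.76 for the 9 genes, a difference that was not tested. Camp, which encodes the cathelicidin, rose by 4.86 (SE 0.63, adjusted p = 0.0151), Ngp, the neutrophilic granule protein, by 4.71 (SE 0.73, adjusted p = 0.0244) and S100a9, a calprotectin subunit, by 4.12 (SE 0.60, adjusted p = 0.0200). Camp was at 1.298, 0 and 0 TPM in WT MI, where Mpo and Elane stood above 10 TPM in every library, and at 15.0, 49.7, 36.7 and 96.2 TPM in Foxp3DTR MI. Since the WT MI level is near 0, the fold of Camp depends on the pseudocount. After sham surgery Camp was at 17.5, 12.1 and 45.8 TPM, Ngp at 27.6, 10.98 and 149.6 TPM and S100a9 at 66.9, 87.8 and 419 TPM, so that sham and Foxp3DTR MI overlapped in each of the 3 genes. WT MI lay below both other groups without overlap, with Camp at -4.03 (adjusted p = 0.917), Ngp at -3.24 and S100a9 at -2.48 (both with adjusted p = 0.960) in WT MI against sham, while Camp was at 0.83 (adjusted p = 0.5005) in Foxp3DTR MI against sham. Among the Foxp3DTR libraries replicate 1, high in Ctsg, had the lowest Camp, Ngp and S100a9 of the 4. Of the remaining genes Ltf (3.72), Fcnb (1.35), S100a8 (3.35) and Lcn2 (2.40) had adjusted p of 0.0516, 0.0590, 0.0613 and 0.165. None of the 14 passed in the other 2 comparisons, with medians of -0.50 and 0.80. Of mature neutrophil markers 0 of 5 passed in Foxp3DTR MI against WT MI, with a median of 1.37. Of these markers 4 were positive and 3 higher without overlap, against 50.1% and 9.97% of all genes. Their sum is mostly Csf3r, the receptor for granulocyte colony-stimulating factor that monocytes carry as well, at 122 to 208 TPM in WT MI and 120 to 177 TPM in Foxp3DTR MI (-0.27, adjusted p = 0.447). Cxcr2, a chemokine receptor of neutrophils, was at 0.255, 0.116 and 0 TPM in WT MI and at 3.31 to 8.34 TPM in Foxp3DTR MI (2.32, adjusted p = 0.0516), and Retnlg was listed at 0 in all WT MI libraries and at 5.41 to 32.3 TPM in Foxp3DTR MI (adjusted p = 0.0718). After sham surgery Cxcr2 ran from 0.753 to 8.15 TPM and Retnlg from 1.41 to 36.8 TPM.

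**Figure D3:**
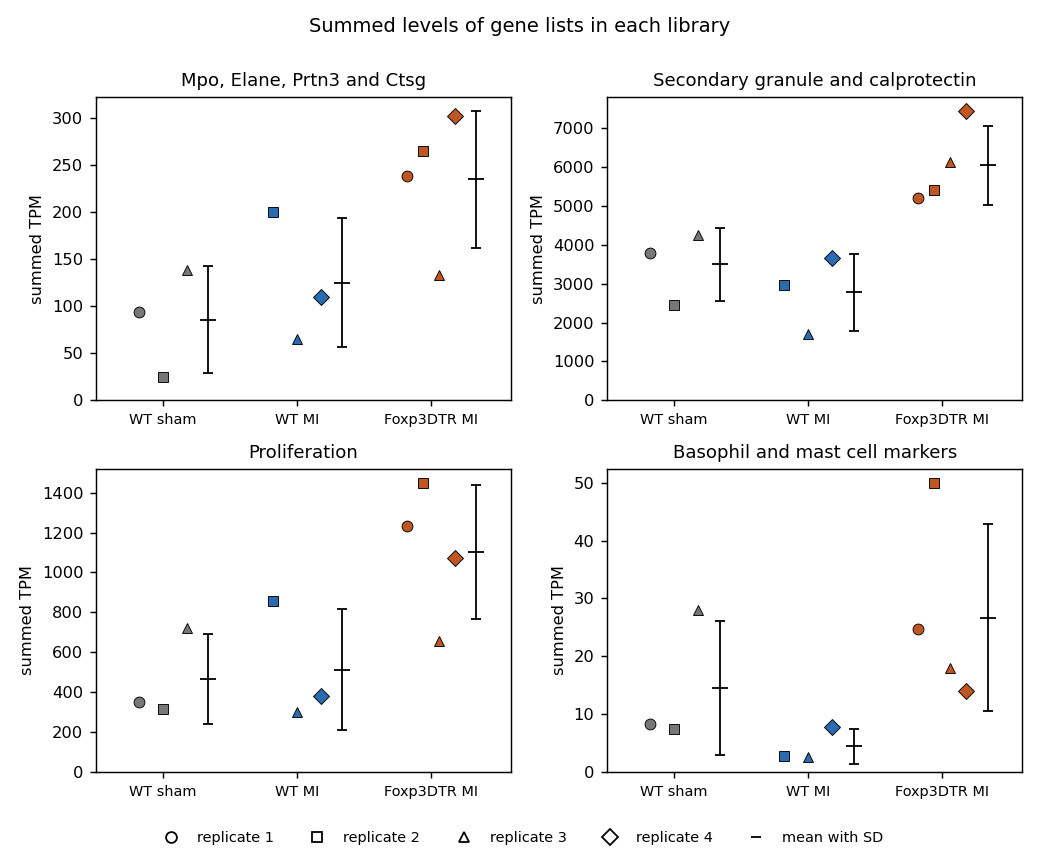
Summed TPM (y axes, starting at 0) of 4 gene lists by group (x axes), 1 point per library shaped by replicate number, with the group mean and its SD. The sum of Mpo, Elane, Prtn3 and Ctsg and that of proliferation genes place WT MI replicate 2 above Foxp3DTR replicate 3. Secondary granule genes and basophil and mast cell markers leave no overlap between WT MI and Foxp3DTR MI. The secondary granule sum is mostly Chil3 (means of 1533 TPM in WT MI and 3238 TPM in Foxp3DTR MI) and Hp (843 and 828 TPM).

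Proliferation genes were highest and lowest after MI in the same libraries of WT mice as the granule genes. Summed over 19 genes such as Mki67 and Top2a they ran from 317 to 723 TPM after sham surgery, from 299.8 to 859 TPM in WT MI and from 655 to 1449 TPM in Foxp3DTR MI, and the sum of Mpo, Elane, Prtn3 and Ctsg from 25.2 to 138, from 65.6 to 200.03 and from 134 to 303 TPM. In both sums WT MI replicate 2 was the highest of its group and Foxp3DTR replicate 3 the lowest of its own. All 19 proliferation genes had a log2 fold change above 0 in Foxp3DTR MI against WT MI, with a median of 1.09, and 0 of 19 passed. The 4 of lowest p were Mcm3 (1.06), Mcm4 (0.74), Ccnb1 (1.36) and Plk1 (1.13), with adjusted p from 0.147 to 0.166. In WT MI against sham 0 of 19 passed with a median of 0.28, and in Foxp3DTR MI against sham 0 of 19 with a median of 1.35.

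The genes closest in pattern to the mean log2 level of Mpo, Elane, Prtn3 and Ctsg over the 10 libraries, among 10170 genes tested at a mean of 5 TPM or more, were Psmc1 (Pearson r = 0.987), a proteasome ATPase, Rad51ap1 (r = 0.982), a protein of homologous recombination, Bub1b (r = 0.976), a kinase of the spindle checkpoint, Hist1h2bh (r = 0.974), a histone, and Stmn1 (r = 0.974), a microtubule regulator. These r are descriptions over 10 libraries, and all genes share the depth and group of each library. Stmn1, for example, stood at 56.0, 10.6 and 22.8 TPM in WT MI and at 70.0, 88.3, 30.3 and 72.7 TPM in Foxp3DTR MI. None of the 5 passed in Foxp3DTR MI against WT MI, with adjusted p from 0.371 to 0.386.

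Basophils and mast cells carry some of the 9 genes too, and their markers were read beside them. None of 7 tested basophil and mast cell markers passed in Foxp3DTR MI against WT MI, all 7 were positive with a median of 1.147, and the sum ran from 2.55 to 7.83 TPM in WT MI and from 14.0 to 50.04 TPM in Foxp3DTR MI, with sham libraries at 7.47 to 27.9 TPM overlapping both. Mcpt8, a basophil protease gene that neighbours Ctsg on chromosome 14, was at 0, 0.374 and 0 TPM in WT MI and at 8.11, 15.4, 4.16 and 2.93 TPM in Foxp3DTR MI (difference of 2.64 on the log2 scale, SE 0.70, adjusted p = 0.0959). Cpa3, a carboxypeptidase gene of both cell types, was at 0.696, 0 and 0.326 TPM in WT MI and at 3.61, 5.00, 1.79 and 2.10 TPM in Foxp3DTR MI (1.47, SE 0.35, adjusted p = 0.0724). Hdc (1.147) and Cma1 (0.73) had adjusted p of 0.184 and 0.296. Tpsb2 was listed at 0 in all 10 libraries, and Mcpt4 in all but sham replicate 3 and Foxp3DTR replicate 2. Foxp3DTR replicate 4, the highest in Mpo, Elane and Prtn3, had the lowest sum of these markers in its group. The order of the Kit values differed from that of Mcpt8. Ms4a3, in turn, was highest in Foxp3DTR replicate 2 (21.3 TPM) and next in replicate 1 (18.8 TPM), as were Mcpt8 and the sum. The orders then parted, with Ms4a3 at 7.07 and 16.5 TPM in replicates 3 and 4, where Mcpt8 was at 4.16 and 2.93 TPM. In WT MI replicate 2 Ms4a3 stood at 8.72 TPM, while Mcpt8 was listed at 0. The part of these cells in the levels of Kit, Ctsg and Ms4a3 was not tested.

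Markers of other lineages gave the following. T-cell markers summed to 6.47 to 11.01 TPM in WT MI and 30.0 to 114 TPM in Foxp3DTR MI, and 8 of 8 were positive with a median of 1.82, 0 of them past the threshold. NK cell markers ran from 21.0 to 62.2 and from 68.2 to 130 TPM, with 0 of 7 past it. Erythroid markers ran from 5.74 to 8.24 and from 8.42 to 30.1 TPM, and plasma cell markers from 336 to 423 and from 501 to 595 TPM, with none past it. The plasma cell sum is mostly Xbp1, which was at 0.03 on the log2 scale. All these sums are of TPM before scaling, and the scaling divided by 0.856 to 0.947 in WT MI and 0.946 to 1.143 in Foxp3DTR MI. The gaps between the NK, erythroid and plasma cell sums therefore need not hold after it. After scaling, 7 of 8 T-cell, 2 of 7 NK cell, 1 of 5 erythroid and 2 of 4 plasma cell markers were higher without overlap. The share of all genes was 9.97%. Sham libraries ran from 10.8 to 137 TPM for T-cell markers and from 46.7 to 130 TPM for NK cell markers. They ran from 7.42 to 201 TPM for erythroid markers and from 313 to 691 TPM for plasma cell markers. Of 4 B-cell markers 2 were positive, Cd79a at 0.58 and Ms4a1 at 0.73, and 1 passed, Cd79b, which fell by 0.78 (adjusted p = 0.0496) and by 0.92 against sham (adjusted p = 0.0450). Of 5 markers of conventional dendritic cells 2 were positive and 1 passed, Dpp4, which fell by 0.74 (adjusted p = 0.0349). Plasmacytoid dendritic cell markers and platelet markers had 0 of 5 and 0 of 4 past the threshold. In WT MI against sham none of the markers passed. The part of these cells in the levels of the 9 genes was not tested.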

How the data were processed

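RNA of splenic Ly6Chigh monocytes was measured in 10 libraries of 3 groups, assigned from the sample titles. The authors deposited 1 table per library with coverage (a signal, the mean read depth over the exons), FPKM and TPM per gene. Per the labels these were made with CASAVA 1.4, cutadapt 1.1, STAR 2.5 and StringTie 1.3.0 on mm10, and the study's own test was DESeq2 on counts. The deposited FPKM and TPM are normalised by the authors to length and library size, and no counts were used here.

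TPM of entries with the same symbol was summed, scaled between libraries by the median of ratios, and taken as log2(TPM + 1). A gene was tested if its deposited TPM was 1 or more in at least 3 libraries, which kept 12938 of 24421 symbols and all 9 genes described. Fold changes on this scale understate the change of low genes. Group means of all 10 libraries were fitted with limma 3.58.1 (R 4.3.3, variance trend) and tested two-sided, with Benjamini-Hochberg adjustment at 0.05, after a check on simulated data. Per-sample columns left unused numbered 0. Depth was inferred as coverage divided by FPKM, constant within 1% for 84.9 to 85.2% of entries. Read figures behind single values are approximate (1 annotated transcript per gene), so no counting interval is given.

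The 9 genes and 16 lists were chosen with earlier results of these data known. Of each list the text names every gene that passed in a comparison and up to 4 others of lowest p in Foxp3DTR MI against WT MI. It also names the 5 genes most like the granule genes. Any other gene named was chosen after its values were seen. Overlapping genes may share reads, since no source used here states the strand setting. Alternatives were TPM without scaling, quantile normalisation, a filter at 5 TPM or none, pseudocounts of 0.1 and 5, array weights, only the 2 groups compared, a block for the replicate number, and leaving out each library. Promoter windows were taken from RefSeq (GRCm38.p6).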

Additional observations from a re-analysis of the deposited data

How the results depend on the processing

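Of 498 values of the 9 genes under alternative settings, 479 kept their direction and their side of the threshold, 17 changed sign and 2 came to pass it. The 2 were Cebpe at 1.41 (adjusted p = 0.0249) and Prtn3 at 2.21 (adjusted p = 0.0427) in Foxp3DTR MI against WT sham without sham replicate 3, so that the number of the 9 genes past the threshold there ranged from 0 to 2 when 1 library was left out. In Foxp3DTR MI against WT MI, Cd34 ranged from -0.0058 to 0.41 when 1 library was left out. In WT MI against WT sham, Mpo was -0.016 with array weights and ranged from -0.14 to 0.79 with 1 library left out, Cebpe from -0.038 to 0.56 and Ms4a3 from -1.11 to 0.60, and Ms4a3 was 0.051 with a pseudocount of 5. In Foxp3DTR MI against WT sham, Gfi1 ranged from -0.37 to 0.16 and Kit from -0.29 to 0.44 with 1 library left out, and Kit was -0.011 with a pseudocount of 5 and -0.13 with array weights. The cause was not tested.

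The number of all genes past the threshold moved more. In Foxp3DTR MI against WT MI it was 145 in the report, 527 (488 higher, 39 lower, against 89 and 56) on unscaled TPM (where the median gene itself shifts by 0.22), 22 without a filter, 583 with only the 2 groups compared, 398 with array weights and 0 to 431 with 1 library left out. In WT MI against WT sham it was 3 with only the 2 groups and 0 to 2 with 1 library left out. In Foxp3DTR MI against WT sham it was 70 in the report, 23 with a pseudocount of 0.1, 11 without a filter, 10 with only the 2 groups and 3 to 636 with 1 library left out. The cause was not tested.

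Same-numbered libraries did not deviate together (correlations of deviations from the group means from -0.19 to 0.19 over 8 pairs). The labels do not say whether they share a day or batch, and so few pairs cannot decide it. With the replicate block the numbers past the threshold were 81, 0 and 16 in the 3 comparisons, none of the 9 genes among them, Ms4a3 was 0.15 in WT MI against WT sham and Kit -0.050 in Foxp3DTR MI against WT sham. With a filter at 5 TPM only 5 of the 9 genes could be tested, so that the other 4 have no value there. Depth limits Gfi1, Cd34 and Cebpe most, at no more than 17.9 approximate reads in any library.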
